A study of Rattus norvegicus with 2 samples.

Results

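The genes described here are 8 genes of chromatin assembly in the rat: the histone variants Cenpa, H2az1, Macroh2a1 and H2ax, the histone genes H4f3 and Hist3h2ba, the linker histone H1f0 and the histone chaperone Asf1b. They were matched by current or older symbol to probe sets that the platform annotation assigns to exactly 1 gene, which gave 9 probe sets for 7 of the 8 genes, out of 31042 non-control probe sets and 14217 measured genes. No probe set in that annotation names H1f0, so the level of this linker histone was not analysed here. Because the 8 genes were chosen with their differences on these same arrays known, those differences are given as a description, with no test.

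Tissue came from the esophagus of male Sprague-Dawley rats bought at 5 to 6 weeks of age, and total RNA was hybridised to Affymetrix rat 230 2.0 expression arrays. The drug group received OSU-HDAC42, an inhibitor of histone deacetylases, at 50 mg/kg by gavage in 7 doses up to 350 mg/kg, while control rats received vehicle on the same schedule. Esophagi were taken on day 15, 24 hours after the last gavage. Each group is 1 array, and the labels do not say whether it holds RNA of 1 rat or of several, which leaves the values without an error between rats and without p-values. The labels name the organ but not the layers sampled, and the keratins Krt13 and Krt5 of squamous epithelium stood at 14438 and 6116 after OSU-HDAC42 and at 14947 and 6449 after vehicle.

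Histones wrap DNA into nucleosomes, each built from the core histones H2A, H2B, H3 and H4, while linker histones of the H1 family bind where DNA enters and leaves the nucleosome. Most core and linker histones are made in S phase from clustered genes whose mRNA ends in a stem-loop in place of a poly(A) tail. Variants such as H2A.Z, macroH2A and CENP-A are made from genes outside these clusters with polyadenylated mRNA, and replace the common histones at chosen sites. Chaperones such as ASF1 carry newly made histones to DNA. The sources used here do not state how the RNA was primed for labelling, and an oligo(dT) primer would capture stem-loop transcripts poorly.

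Promoter sequences are shown first, because most of these genes share a short element that is well known from histone promoters, the CCAAT box. RefSeq windows of the GRCr8 assembly, from 250 bases before to 50 after each gene's annotated start, were found for all 8 genes. The first set shows the 250 bases upstream of the start for the 5 genes with at least 2 such boxes, 5′ to 3′ on the strand of the gene, with CCAAT or its reverse complement ATTGG in capitals.
Asf1b, chr19:41100353-41100602, minus strand: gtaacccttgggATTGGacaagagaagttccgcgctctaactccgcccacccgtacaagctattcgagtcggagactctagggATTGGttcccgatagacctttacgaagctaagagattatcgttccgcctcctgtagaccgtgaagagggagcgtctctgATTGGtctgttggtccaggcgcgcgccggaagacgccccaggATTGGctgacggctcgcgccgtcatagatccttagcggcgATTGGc
H2ax, chr8:53568468-53568717, plus strand: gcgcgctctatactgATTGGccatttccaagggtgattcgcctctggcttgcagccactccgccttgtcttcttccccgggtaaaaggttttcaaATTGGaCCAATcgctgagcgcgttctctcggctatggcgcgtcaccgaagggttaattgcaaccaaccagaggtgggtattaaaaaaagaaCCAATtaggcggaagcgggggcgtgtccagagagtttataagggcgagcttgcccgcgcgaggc
Cenpa, chr6:31431553-31431802, minus strand: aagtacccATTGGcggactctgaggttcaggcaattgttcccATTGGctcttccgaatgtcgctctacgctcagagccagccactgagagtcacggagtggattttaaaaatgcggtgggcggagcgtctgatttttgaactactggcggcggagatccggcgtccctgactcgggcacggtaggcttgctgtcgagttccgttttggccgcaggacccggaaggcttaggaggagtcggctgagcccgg
H2az1, chr2:229028845-229029094, plus strand: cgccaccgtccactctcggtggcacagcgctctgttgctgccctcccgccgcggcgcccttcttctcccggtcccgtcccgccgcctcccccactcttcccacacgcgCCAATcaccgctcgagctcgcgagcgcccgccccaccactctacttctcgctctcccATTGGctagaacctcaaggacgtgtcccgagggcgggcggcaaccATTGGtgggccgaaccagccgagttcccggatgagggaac
Hist3h2ba, chr10:44225171-44225420, plus strand: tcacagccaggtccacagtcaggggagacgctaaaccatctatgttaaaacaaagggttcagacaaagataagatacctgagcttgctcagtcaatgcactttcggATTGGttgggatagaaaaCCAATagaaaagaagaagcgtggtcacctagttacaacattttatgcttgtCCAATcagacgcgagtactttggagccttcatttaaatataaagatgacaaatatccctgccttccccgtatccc

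Counted on both strands over the whole 300-base window, the CCAAT box occurred 5 times at Asf1b, 4 times at H2ax, 3 times at each of H2az1 and Hist3h2ba, 2 times at Cenpa and 1 time at H4f3. It did not occur in the windows of Macroh2a1 and H1f0, which hold 73.7% and 73.0% G and C. The median was 51.7% over all windows and 61% over those of expressed genes. Of all 33469 RefSeq windows of the same length, 37.5% hold at least 1 CCAAT, 11.2% at least 2, 3.02% at least 3 and 0.218% at least 5. Among windows of the 8914 genes with a RefSeq promoter that were expressed above the floor defined below, the shares were 38%, 13.7%, 4.86% and 0.449%. Several boxes are common among histone genes, with at least 2 CCAAT in 21 of 30 H2A windows and 16 of 18 H2B windows. For H3, H1 and H4 genes, without H4f3, the counts were 7 of 13, 3 of 9 and 1 of 4. The element TTTGAA, known as the cell cycle homology region when it lies near the start of mitotic genes, was found 1 time each at Cenpa, H2ax, H2az1 and Asf1b, against 18.3% of all windows and 11.8% of those of expressed genes. At Cenpa it lies at -116 to -111 from the start, at Asf1b at 20 to 25 and at H2az1 at 45 to 50 downstream of it, and at H2ax, on the other strand, at -160 to -155, where it shares 1 base with a CCAAT match. The search for TTCCCGC, a core of E2F sites, matched only the window of Hist3h2ba among the 8 genes. It is held by 4.21% of all windows and 8.14% of those of expressed genes. TATAAA, the TATA box, was found 1 time each at H2az1, H4f3, Hist3h2ba and H2ax, against 14.2% of all windows and 6.89% of those of expressed genes. By histone class 16 of 30 H2A, 7 of 18 H2B, 6 of 13 H3, 3 of 9 H1 and 1 of 4 H4 windows hold it. TATAAA lies downstream of the start only at H2az1, and on the other strand only at H2ax. These motifs were chosen with the windows in view, and a match describes letters in a window and not a site in use.

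A second set concerns the name of H4f3. In RefSeq the gene called H4f3 carries the older symbol Hist1h1d, a name of the linker histone series that RefSeq also lists for H1f4, so its symbol points to histone H4 and its older symbol to histone H1. Promoters of H1 genes are known for an element called the H1 box, AAACACA, shown in capitals in the 150 bases upstream of H4f3 and of the linker histone genes H1f2 and H1f4.
H4f3, chr17:41980342-41980491, minus strand: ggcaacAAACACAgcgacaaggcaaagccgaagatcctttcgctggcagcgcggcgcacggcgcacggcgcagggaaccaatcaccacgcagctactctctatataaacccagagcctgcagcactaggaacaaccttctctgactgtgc
H1f2, chr17:41820454-41820603, minus strand: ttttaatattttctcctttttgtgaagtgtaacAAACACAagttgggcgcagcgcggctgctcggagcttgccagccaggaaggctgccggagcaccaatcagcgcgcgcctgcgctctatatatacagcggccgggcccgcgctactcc
H1f4, chr17:41914275-41914424, plus strand: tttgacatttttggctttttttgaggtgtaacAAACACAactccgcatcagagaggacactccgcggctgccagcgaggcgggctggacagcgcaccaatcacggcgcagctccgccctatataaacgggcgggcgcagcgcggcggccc

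All 3 windows hold 1 AAACACA followed downstream by 1 CCAAT. At H4f3 these lie at -144 to -138 and at -73 to -69, at H1f2 at -117 to -111 and -55 to -51, and at H1f4 at -118 to -112 and -55 to -51. Over all windows AAACACA was found in 6.99%, and over those of expressed genes in 4.08%. Among genes with a histone symbol it was found in 5 of 9 H1 windows, 3 of 30 H2A windows, 2 of 18 H2B windows, 1 of 13 H3 windows and 1 of 4 H4 windows, with H4f3 left out of these classes. Of the linker histone genes not shown, H1f6 also holds AAACACA, while H1f0 and H1f10 do not. Which histone the H4f3 probe set measures was not settled by these names, and it is called H4f3 below.

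All 9 probe sets of the 7 measured genes had a higher deposited intensity on the OSU-HDAC42 array, counting values below any limit. Of these 9 probe sets, 2 lay below the floor defined next, and 1 of those, for H2ax, was under 16 on both arrays. Among all genes above that floor, 46.7% were higher and 52.8% lower. A gene was called expressed when its brighter array reached an intensity of 49.1 (the floor, which is the median of all non-control probe sets after averaging both arrays on the log2 scale), and each gene was represented by its brightest probe set. On that basis 4 of the 7 measured genes were at least 2-fold higher in the OSU-HDAC42 sample (Asf1b, H4f3, H2ax and Cenpa) and 0 were at least 2-fold lower, where 1.88% of the 9560 expressed genes were that much higher and 3.17% that much lower. Over the 16128 probe sets above the floor the same shares were 2.22% and 2.86%. The median log2 difference, OSU-HDAC42 minus vehicle, was 1.04 over the 7 genes and -0.027 over all expressed genes, whose SD was 0.48. Since the genes were picked from these values, nothing is read from the contrast with the background. The precision is limited by the number of arrays, and the only spread that could be measured was that between probe sets of 1 gene, with an SD of 0.41 in log2 difference over 3643 pairs, which covers probe noise alone.

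**Figure D1:**
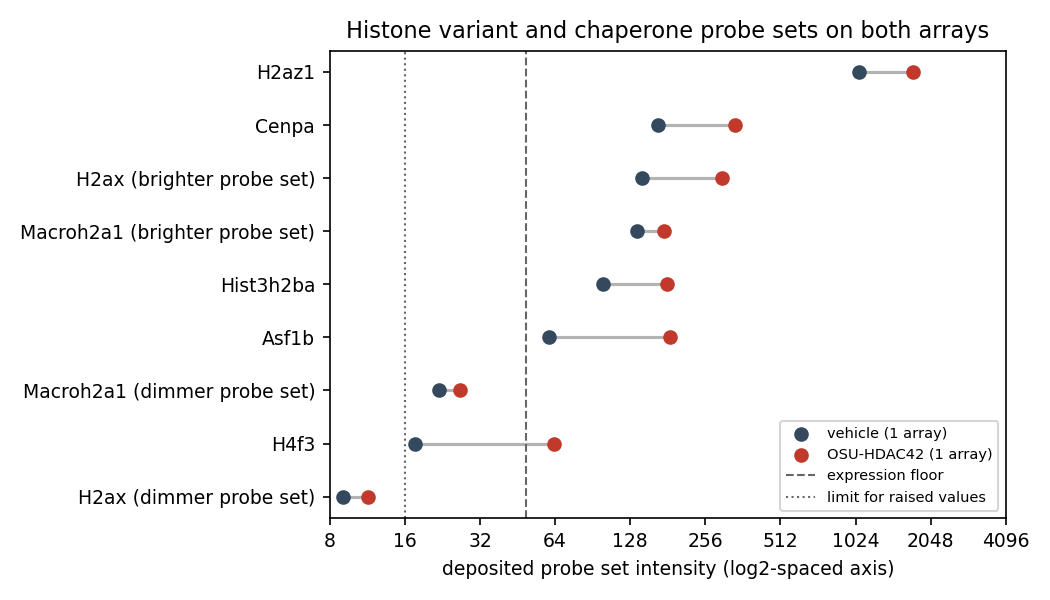
Deposited intensity (log2-spaced axis) of each of the 9 probe sets on the vehicle array (dark) and the OSU-HDAC42 array (red), joined by a line. The dashed line is the expression floor of 49.1 and the dotted line the intensity of 16 to which lower values were raised. Every red point lies to the right of its dark point, and 2 probe sets, the dimmer ones of H2ax and Macroh2a1, stay below the floor on both arrays.

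The chaperone Asf1b takes newly made H3 and H4 to the replication fork and is known as the ASF1 form of dividing cells. Its single probe set reached 185 after OSU-HDAC42 against 60.4 after vehicle, a difference of 1.62 on the log2 scale (3.07-fold), rank 29 from the highest among the 9560 expressed genes. The paralog Asf1a, which also serves deposition outside S phase, was measured by 4 probe sets that differed by 0.38, 0.73, 0.20 and 0.38, the last of them below the floor. All 4 lay below the Asf1b difference, and the Asf1a probe set with the largest difference stood at 179 against 108.

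Cenpa encodes the H3 variant that marks centromeres and is loaded after mitosis. Its single probe set stood at 338 after OSU-HDAC42 against 165 after vehicle, a difference of 1.04 (2.05-fold), only just past the 2-fold limit. H2ax encodes the H2A form whose tail is phosphorylated at DNA breaks. The brighter H2ax probe set stood at 299 against 143, a difference of 1.06 (2.09-fold). The dimmer H2ax probe set, of a type that can share probes with other transcripts, stood at 11.4 against 9.04, under 16 on both arrays, so it gives no usable difference.

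H4f3 had the largest difference of the group at 1.84 (3.59-fold) and rank 14, but from a low level. Its probe set stood at 63.2 after OSU-HDAC42 against 17.6 after vehicle, so the vehicle value lay below the floor and close to the intensity of 16 to which lower values were raised. When all intensities under 32 were raised to 32, the difference of H4f3 fell to 0.98 and it no longer counted as 2-fold, which left 3 genes. Of the 4 genes past 2-fold, H4f3 is thus the one whose size is least well measured.

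The other 3 measured genes were higher by less than 2-fold. Hist3h2ba, an H2B gene outside the main histone cluster, stood at 180 against 99.2, a difference of 0.86 (1.82-fold). H2az1, the main gene of H2A.Z, which sits at promoters and enhancers, was the brightest of the group at 1736 against 1059, a difference of 0.71 (1.64-fold), rank 480. Macroh2a1 encodes an H2A with a large extra domain that is enriched in silent chromatin, and its brighter probe set stood at 175 against 136, a difference of 0.36. The dimmer Macroh2a1 probe set, at 26.7 against 22.0, differed by 0.28. Macroh2a1 thus had the lowest rank of the group at 1523.

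**Figure D2:**
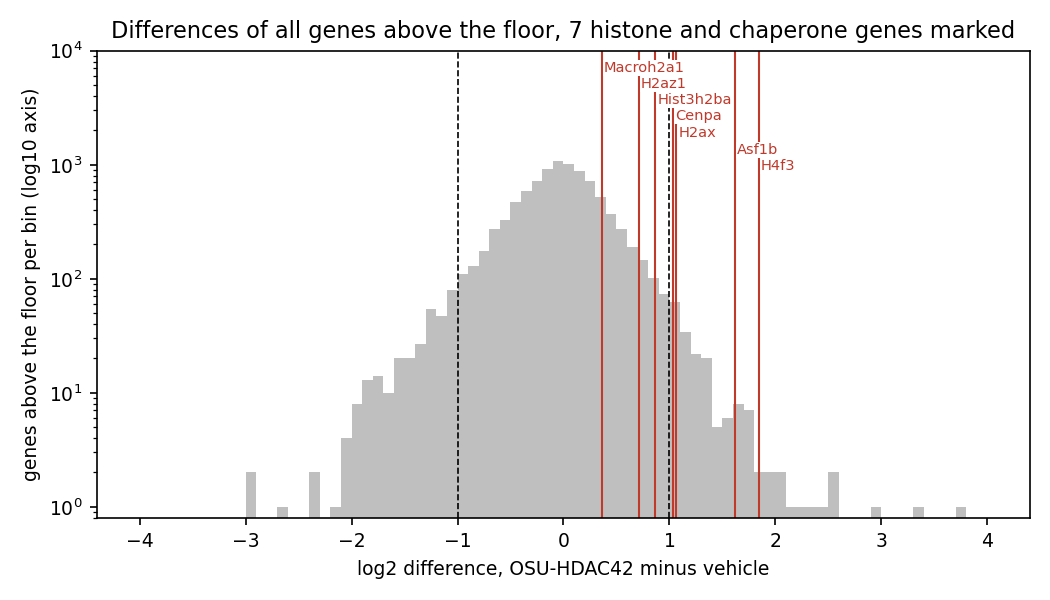
Histogram of log2 differences, OSU-HDAC42 minus vehicle, of the 9560 genes above the expression floor (grey, log10 count axis, bins of equal width), with a red line for each of the 7 measured genes and dashed lines at 2-fold. Asf1b and H4f3 lie in the sparse right tail at 1.62 and 1.84, Cenpa and H2ax just past the dashed line, and Macroh2a1 within the body of the distribution at 0.36.

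The annotation gave 24 genes with a histone symbol, of which 6 are the measured genes above without Asf1b and 18 are others. Of those 18, 6 were expressed above the floor and 5 were under 16 on both arrays. Among the 6, 5 were higher and 1 lower, with a median of 0.19, and 0 were past 2-fold in either direction. The linker histone H1f2, a main H1 of many tissues, was the largest of them at 2504 against 1527, a difference of 0.71. Another linker histone, H1f10, stood at 134 against 126, a difference of 0.087. H1f4 lay just under the floor, at 49.05 against 24.0 with the floor at 49.11, and its difference of 1.03 was not counted for that reason. Among H2A genes, H2ac25 differed by 0.31 and by 0.27 on its pair of probe sets, and H2aj, a variant known from ageing cells, was the lower one at 866 against 987 (-0.19). Macroh2a2, the paralog of Macroh2a1, differed by 0.17 on the probe set above the floor, at 50.8 against 45.2. Hist2h2be, an H2B gene, stood at 1181 against 1026, a difference of 0.20.

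**Figure D3:**
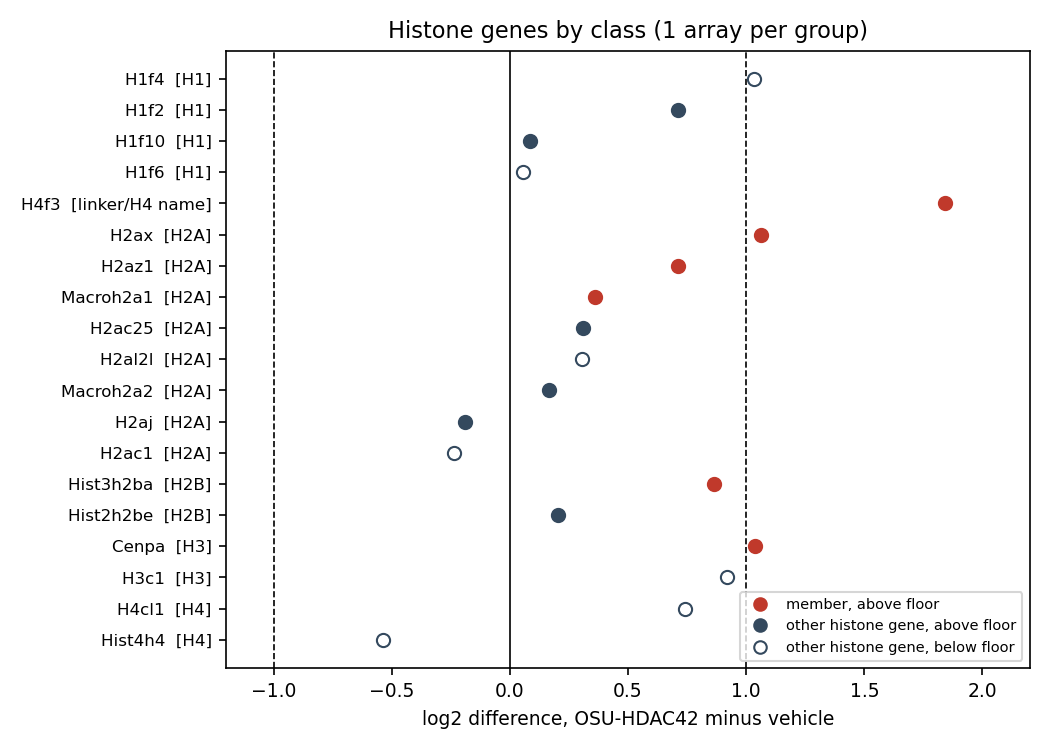
Log2 difference, OSU-HDAC42 minus vehicle, of the 19 genes with a histone symbol and at least 1 array at 16 or more, grouped by histone class in brackets. Red points are the 6 histone genes described above, dark filled points other genes above the floor and open points genes below it, of which H1f6, H3c1 and H4cl1 were under 16 on the vehicle array and have only a bound. All red points lie right of 0, and H2aj, H2ac1 and Hist4h4 lie left of it.

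Partner genes were examined by role, from lists set up with earlier results of these data known. For comparison, 46.7% of all expressed genes were higher and 52.8% lower. Of 30 other histone chaperones, 23 were measured and all 23 were expressed, 18 higher and 5 lower, with a median of 0.11. Among them 0 passed 2-fold upward and 1 downward. The latter was Chaf1a, the large subunit of CAF-1, which receives H3 and H4 from ASF1 at the fork, at 107 after OSU-HDAC42 against 280 after vehicle (-1.39). The CAF-1 subunit Chaf1b stood at 63.3 against 59.8, a difference of 0.082. Dnajc9, a heat shock co-chaperone of H3 and H4, differed by 0.57, the H2A.Z chaperone Vps72 by 0.42 and the importin Ipo4, which takes H3 and H4 into the nucleus, by -0.63. Among the 24 measured chaperones Asf1b was the only one past 2-fold higher, and by brightest probe sets the next highest, Dnajc9, reached 1.48-fold. A dimmer Asf1a probe set above the floor differed by 0.73 on the log2 scale, more than Dnajc9. As Asf1b was chosen with its difference known, nothing is read from its contrast with the other chaperones.

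Of 21 listed genes of the constitutive centromere network and of Cenpa deposition, 15 were measured and 14 expressed, 12 higher and 2 lower, with a median of 0.50. Past 2-fold higher were 4, and 0 were past 2-fold lower. Cenpp stood at 651 against 202 (1.69) and Cenpu at 104 against 44.9 (1.21). Cenpw stood at 317 against 136 (1.22) on its brighter probe set and at 77.3 against 46.9 (0.72) on the other. Cenpq stood at 270 against 135 (1.00), right at the 2-fold limit. The loading factors differed in size, with Mis18a at 0.97 and Hjurp, the chaperone of Cenpa itself, at 0.23, at 65.2 against 55.4.

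Genes of the machinery that places and removes H2A.Z were split between both directions. Of 17 listed subunits of the SRCAP, TIP60 and INO80 complexes and related factors, 15 were expressed, 6 higher and 9 lower, a split not far from that of all expressed genes, with a median of -0.32. Znhit1, a subunit needed for H2A.Z exchange, was the only one past 2-fold, at 85.2 against 174 (-1.03). The TIP60 subunits Ing3 and Epc1 differed by -0.96 each on their brighter probe sets and Dmap1 by -0.82. The ATPase Ruvbl2 was the highest at 0.60, and Srcap was under 16 on both arrays.

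Of 14 listed genes of histone mRNA supply, 11 were expressed, 7 higher and 4 lower, with a median of 0.23, and 1 was past 2-fold. The list also holds general cell cycle genes, and the 1 past 2-fold is such a gene. That was Cks1b, a cyclin-dependent kinase subunit, at 318 against 136 (1.22) on its brighter probe set and at 269 against 114 (1.23) on the other. The transcription factor E2f2 differed by 0.88, and Eri1, an exonuclease that trims the histone stem-loop, by 0.57. Slbp, the protein that binds this stem-loop, stood at 599 against 509 (0.23), Casp8ap2 differed by 0.28, and Npat, the activator of S-phase histone genes, by -0.021.

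Of 21 listed genes that write, read or erase phosphorylated H2AX or act downstream of it, 14 were expressed, 7 higher and 7 lower, with a median of -0.071. Eya1 and Eya2, which act on a tyrosine of H2AX and are also known from skeletal muscle, were past 2-fold lower. Eya1 stood at 22.7 against 80.3 (-1.82), and Eya2 at 351 against 713 (-1.02) on its brighter probe set and at 56.5 against 105 (-0.89) on the other. The kinase Prkdc differed by -0.84, Nbn, which brings ATM to breaks, by -0.77, and the checkpoint kinase Chek1 was highest at 0.44.

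**Figure D4:**
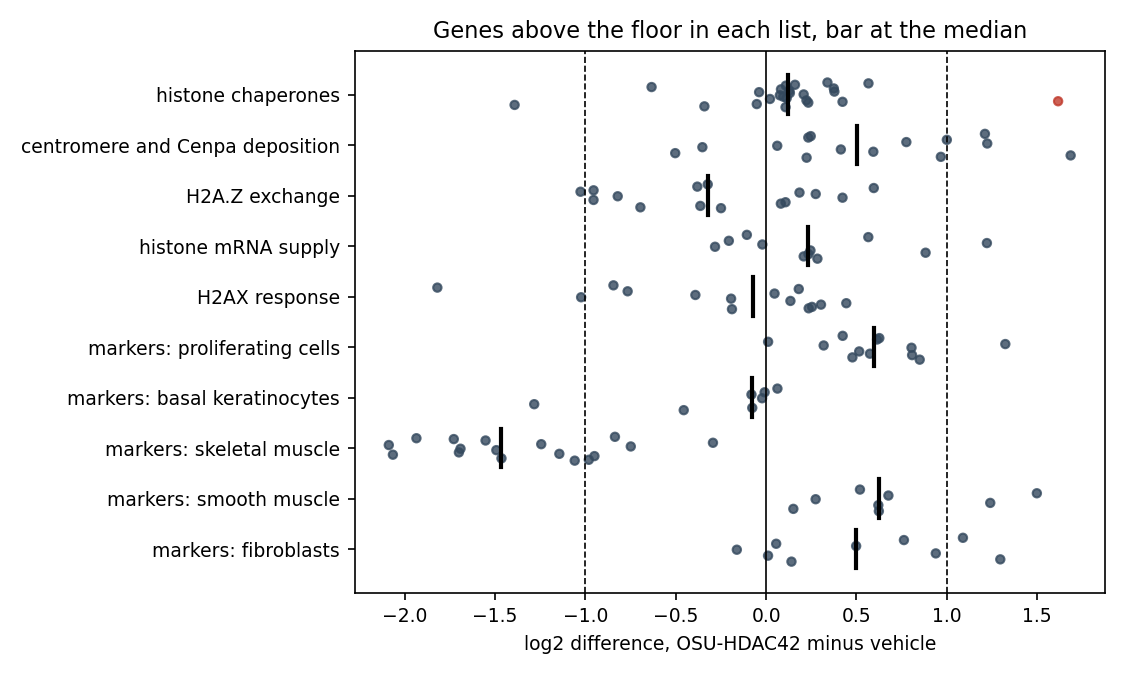
Log2 difference, OSU-HDAC42 minus vehicle, of each expressed gene in the partner lists and in lists of cell type markers (points, vertical jitter without meaning), with a bar at the median of each list and dashed lines at 2-fold. Asf1b is the red point at 1.62. The centromere list has its median at 0.50 and the proliferating cell markers at 0.59, the H2A.Z exchange list lies left of 0 at -0.32, and skeletal muscle markers lie farthest left at -1.46.

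Marker genes of several cell types differed beside the histone genes. Of 14 markers of proliferating cells, 12 were measured, and all 12 were higher, with a median of 0.59 and a summed intensity of 5645 after OSU-HDAC42 against 3396 after vehicle. Birc5 was the highest of them at 1.32, Aurkb differed by 0.85, Top2a by 0.81, Ccnb1 by 0.80, Mki67 by 0.42 and Cdk1 by 0.011. All 17 skeletal muscle markers were lower, 12 of them past 2-fold, with a median of -1.46 and a summed intensity of 17023 against 34664, and with Actn3 at -2.09 and Ampd1 at -2.07 as the lowest. All 8 smooth muscle markers were higher (median 0.62, sum 11007 against 6815), with Tagln 2.36-fold and Synpo2 2.83-fold higher on its brightest probe set, while another Synpo2 probe set differed by -0.44. Of 9 fibroblast markers 8 were higher (median 0.50, sum 21453 against 16888), with Lox at 1.30 and Thy1 at 1.09. Of 7 basal keratinocyte markers 1 was higher (median -0.077, sum 29842 against 30840), and Itgb4 differed by -1.28. Of 10 suprabasal ones 3 were higher (median -0.056, sum 47263 against 48103), among them Sprr1b at 2.21 and Krt10 at 1.04. The other 7 were lower, among them Evpl at -0.69 and Krt1 at -0.35. Of the 6 endothelial markers measured 2 were higher (median -0.51, sum 2738 against 2611). Of the 6 expressed leukocyte markers 3 were higher, 2 lower and 1 equal (median 0.050, sum over all 7 measured 1999 against 2523). The mast cell gene Cpa3 was the highest of them at 1.46 and Cd74 the lowest at -0.66. The endothelial and leukocyte medians turned to 0.32 and -0.56 when the floor was set at the 75th percentile of intensities. None of these measured markers was listed at 0 on either array. The part that a different share of dividing, muscle or connective tissue cells has in the histone and chaperone differences was not tested. In whole tissue, fewer cells of a type and less RNA per cell cannot be told apart. Among array controls that reflect RNA integrity, the 3′ probe set of beta-actin was 6.29 times as bright as the 5′ one after OSU-HDAC42 and 7.76 times after vehicle, with 2.09 and 2.32 for GAPDH, and their part in these differences was not tested either.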

How the data were processed

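The deposited values are 1 intensity per probe set and array on a linear scale, a unit inferred from their range of 4.48 to 14947 once 57 control probe sets are set aside. The authors used GCOS and RMA, per the submitters' processing notes, and their order, versions and the scaling between arrays are not given in the sources used here. Intensities under 16 were raised to 16, which applied to 28.4% of probe sets after OSU-HDAC42 and 29.2% after vehicle, and log2 was taken with no further normalization. Genes came from the 20826 probe sets with 1 gene symbol in the platform annotation, and 436 with several and 9780 with none were left out. Current symbols were taken from RefSeq (GRCr8) through gene IDs. The 8 genes, all lists and markers were chosen with earlier results of these data known. Named from each partner list are all genes past 2-fold and, of those expressed, the 4 with the largest absolute difference. The same rule was set for cell type markers, but as these are context only some of them are named. Paralogs and single subunits beyond these were added for their role. With 1 array per group no test was run. Alternatives changed the raised value, the scaling, the floor, the fold limit and the choice of probe sets. The calculations used pandas 2.3.3 and statsmodels 0.14.6 in Python 3.11.15. They were checked on simulated arrays with planted changes larger than 2-fold in genes well above the floor. This check does not cover calls near the fold limit or near the floor.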

Additional observations from a re-analysis of the deposited data

Results flagged for a closer look

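A probe set that the annotation assigns to 5 histone H4 genes at once, and that no comparison of genes used, differed by 1.05 on the log2 scale, at 376 after OSU-HDAC42 against 181 after vehicle. It drew attention because its signal was past 2-fold higher in the drug sample, as it was for 2.22% of all probe sets above the floor. Another probe set assigned to 5 H4 genes had nearly equal intensities, at 371 against 370, and one more was below the floor at 18.1 against 15.0. Of the 13 probe sets assigned to several histone genes, no other was past 2-fold, and no gene can be named from them.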

How the results depend on the processing

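Of 10 alternatives, 6 left the difference of every one of the 7 genes as it was, those on the floor and the fold limit by construction, and say nothing about stability. The other 4 changed 22 values, none in direction, of which 21 moved by less than the SD of a single probe set (0.29), while H4f3 went to 0.98 with intensities under 32 raised. Over all settings the differences ranged from 1.04 to 1.06 for Cenpa, 1.06 to 1.09 for H2ax, 1.62 to 1.64 for Asf1b, 0.67 to 0.73 for H2az1, 0.86 to 0.89 for Hist3h2ba and 0.36 to 0.38 for Macroh2a1. With the floor at the 75th percentile 2 of the genes, Cenpa and H2ax, were counted as 2-fold higher, while Asf1b and H4f3 did not reach it. Among the 5595 genes above this higher floor 75 were 2-fold higher and 119 lower, because fewer genes reached it. A 3-fold limit also gave 2, here Asf1b and H4f3, with 31 higher and 57 lower among the 9560 expressed genes. A 1.5-fold limit gave 6, with 725 higher and 1042 lower among the same genes, by construction. With the higher floor the H2AX response median turned to 0.047, the endothelial one to 0.32 (66.7% of markers higher, from 33.3%) and the leukocyte one to -0.56 (0% higher, from 50.0%), and fibroblast markers reached 100%. Averaging probe sets of a gene gave 81.8% higher for histone mRNA supply, from 63.6%, and 28.6% for basal keratinocytes, and leaving out probe sets that can share probes gave 20% for endothelium. The share of higher markers moved by over 10 percentage points with each array centred for basal keratinocytes (28.6%, from 14.3%) and leukocytes (66.7%, also with quantile normalization and the lowess trend removed) and with quantile normalization for fibroblasts (77.8%, from 88.9%). No paired analysis was possible because there was a single array of each kind. Low intensity limits H4f3 and the dimmer probe sets of H2ax and Macroh2a1. The vehicle value of Asf1b, 60.4, also lay not far above the floor of 49.1.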
